A study of Homo sapiens with 16 samples.

Results

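OVCAR3 is an established human cell line from a high-grade serous ovarian carcinoma, and its messenger RNA without added hormone is described here from 4 arrays of cells that received only the ethanol vehicle. These 4 arrays, chosen by their labels and not by any measured value, belong to a series of 16 in which the other arrays hold cells given 1,25-dihydroxyvitamin D3 (1,25(OH)2D3), the form of vitamin D that binds its receptor, for 8, 24 or 72 h. None of those treated arrays was used. Of the 4, 3 are Affymetrix U133A arrays, labelled as biological replicates 1, 2 and 3 of the vehicle control at time 0 h, out of 12 arrays of that type, and from independent experiments per the series' design. The remaining 1 is an older U95 array with the same label, out of 4 of its type. All cultures were of the 1 line, grown in RPMI medium with bovine serum and bovine insulin, so every vehicle cell had both in its medium. The ethanol dose and exposure were equal in treated and control dishes, and hormone was added at staggered times so that all were collected together. The controls are therefore cells at the collection time and under ethanol, and the label 0 h means that no hormone was given.

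High-grade serous carcinoma is thought to arise mainly from the secretory epithelium of the fallopian tube, a Mullerian tissue. Its cells keep the transcription factors PAX8 and WT1 of that lineage, carry the simple keratins of a single-layered epithelium and shed the mucin MUC16, which blood tests measure as CA-125. A subset of these tumours has extra copies of CCNE1, the cyclin E gene that drives entry into S phase, and OVCAR3 is a commonly used model of that subset.

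The values are MAS5 signals, a brightness per probe set in which mismatched probes have been set against matched ones, scaled by array. 2 probe sets of equal brightness need not report equal amounts of RNA, because probes bind with different strength, so an order of genes below is an order of brightness. Fewer copies of a message per cell and fewer cells holding it cannot be told apart in bulk RNA. A gene was taken from its brightest probe set that names 1 gene, which gave 11963 genes on U133A and 8228 on U95. Values are given in the order of replicates 1, 2 and 3, means are followed by the SD (n = 3 arrays), and the single U95 value has no spread. With 1 group there is no comparison of conditions and no test, and the number of arrays limits the precision.

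To say which signals stood above the background of the arrays, 67 genes known for the restricted work of other organs (hormones, digestive enzymes, eye, muscle and liver proteins) were listed, and 56 of them were measured on U133A. Their median signal was 70.1 and the highest, TSHB, a pituitary hormone subunit, averaged 422. The 95th percentile of these 56 means, 372.9, is called the level below. On U133A 4932 of 11963 genes, or 41.2%, had a mean over it, 4611 of them on all 3 arrays, and the median of all genes was 260.9. On U95 the same rule, over 52 of the listed genes, gave a level of 636.8, which 2393 of 8228 genes, or 29.1%, exceeded, with a median of all genes of 264.8. Every count of list members below is to be read against those shares. A gene under the level may be present at a signal its probes could not separate from that of the other-organ genes.

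The label of the cells was checked first against 6 markers, and all 6 were over the level on each of the 3 U133A arrays. The keratin KRT18, an intermediate filament protein of simple epithelia, had signals of 11878, 14394 and 14118, a mean of 13463 ± 1379.8. Its filament partner KRT8 gave 4388, 5636 and 5848 (5291 ± 789). Both keratins were lowest on replicate 1, and replicates 2 and 3 lay close together. PAX8, the Mullerian lineage factor, gave 8145, 7907 and 7591, a mean of 7881 ± 278. WT1, the Wilms tumour transcription factor kept by serous carcinomas, gave 2064, 2264 and 1958 (2095 ± 156). For PAX8 as for WT1, the spread was small beside the distance to the level. CCNE1 gave 3127, 2505 and 2432 (2688 ± 382), with replicate 1 above the other two. MUC16, the CA-125 mucin, gave 1305, 1254 and 1042 (1200.5 ± 139), and its lowest array was still far over the level.

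For PAX8 and WT1 the choice of probe set moved the signal more than the choice of array. PAX8 had 8 probe sets, whose means ran from 603 to 7881, and WT1 had a second one at 644. All 14 U133A probe sets of the 6 markers were over the level. The U95 array carried 5 of the markers, all over its own level, with signals of 7036 for KRT18, 6926 for PAX8, 4819 for KRT8, 3153 for CCNE1 and 1633 for WT1. MUC16 was not among the genes measured there. The PAX8 value of each array type came from a probe set of the same name, 121_at. The next brightest PAX8 probe sets, with different names, gave a mean of 2539 on U133A and 2348 on U95. By its brightest probe set no marker measured went against the label on either array type, while a second U95 probe set of WT1, at 559, was under the U95 level.

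**Figure D1:**
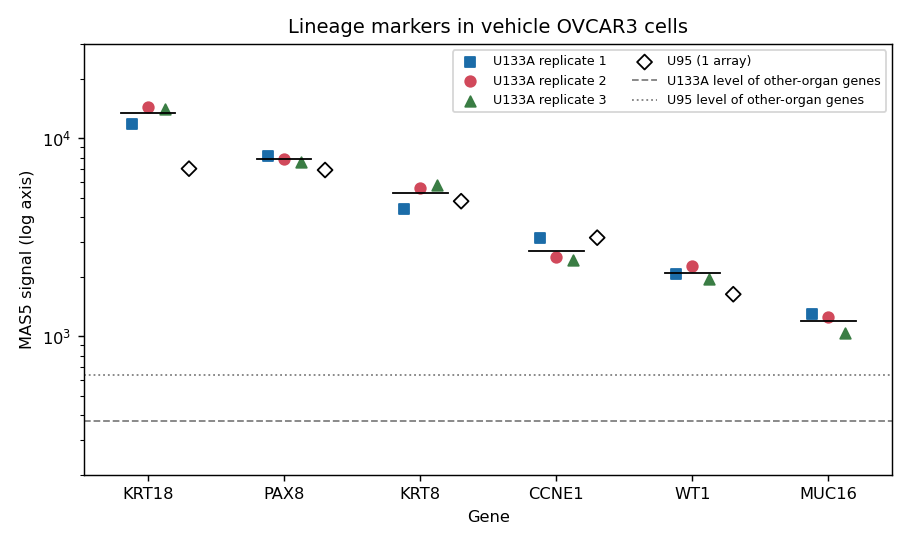
MAS5 signal (log axis) of the 6 lineage markers on the 3 U133A vehicle arrays (filled symbols, horizontal bar the mean) and on the U95 vehicle array (open diamonds). The lines give the level of other-organ genes, 372.9 on U133A and 636.8 on U95, and every symbol lies above the line of its own array type.

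Of 29 measured genes known as surface or secreted products of ovarian carcinoma, 24 were over the level on all 3 arrays, with a list median of 1077. The brightest was CD24, a small mucin-like adhesion molecule, at 10628, 10882 and 9528. SPINT2, a membrane-bound inhibitor of serine proteases, followed at 8784, 9413 and 8861. SLPI, a secreted protease inhibitor, gave 6684, 7586 and 7266, and WFDC2, the serum marker HE4, gave 5746, 7256 and 6907. These are products that serous tumours display or release, and all 4 were far over the level. The tetraspanin CD9 averaged 5424 ± 504, the adhesion molecule EPCAM 4889.5 ± 295, the iron-siderophore carrier LCN2 2552 ± 206 and the retinoic acid carrier CRABP2 2511 ± 471. CRABP2 had its high array in replicate 2, at 3028, whereas LCN2 had its high one in replicate 1, at 2790.4. The list was not uniform. MUC4, a membrane mucin, averaged 26.1 ± 11.9, the kallikrein KLK11 39.8 ± 23.2, the phosphoprotein SPP1 (osteopontin) 48.3 ± 5.12 and KLK7 129.7 ± 11.6, all under the level on every array.

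Among the Mullerian and epithelial transcription factors, 12 of 22 were over the level, and their median of 452 was above the median of all genes. On U95 6 of 19 were over the level, near the 29.1% of all genes there. After PAX8 and WT1 the brightest were EMX2, a homeobox factor of the developing genital tract, at 1925, 1879 and 1883, and SOX17, which is co-expressed with PAX8 in the tubal epithelium, at 1867, 1915 and 1656. EMX2 varied little between the U133A arrays but was under the level on U95, at 526. The homeobox factor MEIS1 averaged 1136 ± 190.3 (and 590.0, under the level, on U95), the epithelial ETS factor ELF3 989 ± 69.5, GRHL2, a grainyhead factor that maintains the epithelial state, 780.4 ± 75.3, and HOXB7 716 ± 75.8. At the other end the lowest 4 of the list were OVOL1, GATA4, BNC1 and GATA6, with means of 27.3, 44.7, 66.7 and 72.8. GATA4 and GATA6 are known from gonadal and endodermal cells.

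The keratins divided for the most part by the kind of epithelium they are known from. All 4 simple keratins were over the level on every array. Beside KRT18 and KRT8, KRT19 gave 4106, 6174 and 4916 and KRT7, the partner typical of ductal and Mullerian glands, gave 4323, 4369.7 and 4896. KRT19 was the more variable of that pair, with its high array in replicate 2. Of 14 keratins of stratified, hair-bearing or intestinal epithelia, 3 were over the level, with a list median of 110. These were KRT10 (2415 ± 344), KRT23 (1266 ± 119) and KRT4, which at 373, 389 and 402 cleared the level on 2 arrays and lay at it on the other. The basal keratin KRT14 averaged 9.61 ± 4.46, KRT16, a keratin of wounded epidermis, 31.5 ± 14, KRT12 of the cornea 16.5 ± 17.7 and KRT15 43.9 ± 15.8. On U95 3 of 12 of this second list were over the level, near the 29.1% of all genes there. They were KRT10, KRT4 and KRT13, the last at 686 on U95 against 69.2 ± 32 on U133A.

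Genes of epithelial adhesion were bright as well: 17 of 22 were over the level, 16 on all 3 arrays, with a median of 1228. DSP, the desmosomal linker desmoplakin, had signals of 5574, 5964 and 5767. CDH6, a cadherin of kidney and Mullerian epithelia, had 4374, 4217 and 3869, and CDH1, the classical E-cadherin, had 2351, 2610.1 and 1968. For both cadherins replicate 3 was the lowest array. CTNNA1 and JUP, which tie cadherins to actin and keratin, averaged 3536 ± 280.0 and 2509.8 ± 224. The tight junction scaffold TJP1 averaged 2106 ± 185 and the claudin CLDN7 2096 ± 260.5. On U95 11 of 20 genes of the list were over the level, and TJP1 was far under it, at 63.5. ITGB4, an integrin of hemidesmosomes, averaged 115 ± 33.2, TJP3 188 ± 27.8, OCLN 218 ± 13.7 and ITGA6 284 ± 2.34, none over the level on any array.

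The mesenchymal list stood on the other side, with 2 of 16 genes over the level and a median of 125. S100A4, a calcium-binding protein of motile cells, was the brightest at 2379, 3440.1 and 2652. FN1, fibronectin of the extracellular matrix, gave 1033, 382 and 361, so its mean of 592 ± 382 rests on replicate 1, and without that array 1 of the 16 stayed over the level. Smooth muscle actin ACTA2 averaged 304 ± 47.5 and vimentin (VIM), the filament of mesenchymal cells, 266 ± 37.2, both under the level on each array. The matrix protease MMP2 averaged 239 ± 7.33. ZEB2, SNAI2 and ZEB1, which repress E-cadherin in mesenchymal transitions, averaged 12.5 ± 4.17, 21.4 ± 12.1 and 49.9 ± 37.7. The variable FN1 signal was seen in other probe sets too and is taken up with the replicate spread.

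Markers of other cells that a culture or a tumour piece could hold were mostly under the level. No measured leukocyte marker was over it on any array (0 of 18), with list medians of 91.3 on U133A and 52.2 on U95. ITGAM, an integrin of myeloid cells, was the brightest at 252 ± 11.9, and NKG7, a granule protein of cytotoxic lymphocytes, was the dimmest at 5.08 ± 1.02. PTPRC (CD45), carried by all leukocytes and named here after its values were seen, averaged 44.9 ± 5.49. No endothelial marker was over the level (0 of 12, median 52.9), ENG being the brightest at 210.0 ± 16.2 and TIE1 the dimmest at 4.54 ± 0.755. Of 12 fibroblast markers 1 was over it, the collagen chain COL1A1, at 482, 725 and 416, while its partner chain COL1A2 gave 228, 107 and 185 and the fibroblast proteoglycan LUM averaged 1.49 ± 0.409. The COL1A1 probe set has a name ending in x_at, the maker's mark for probes that can bind other sequences. On U95 COL1A1 gave 104, under the level, and 0 of 10 fibroblast markers were over it there. Summed over the list, the fibroblast markers came to 1642, 1645 and 1664 on the 3 arrays, a sum in which COL1A1, highest on replicate 2, weighs most. The leukocyte sums were 1595, 1850 and 2136 and the endothelial sums 919, 1079 and 1278, both with replicate 3 highest and replicate 1 lowest. The genes of other organs also summed highest on replicate 3, at 5517, 5309 and 6257, as did the intestinal list, at 991, 1077 and 1315, and nearly all of these genes were under the level on every array.

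Other ovarian and Mullerian cell types gave the same picture. None of 16 markers of sex cord, steroid-making and germ cells was over the level, with a median of 32.0. The granulosa cell factor FOXL2 was closest, at 331, 297 and 341, and DDX4 (a germ cell helicase), NANOG, DPPA4 and NR5A1 were the dimmest, at means of 5.51, 7.71, 9.18 and 15.4. None of 8 ciliated cell markers was over it (median 42.2), with FOXJ1, the master factor of cilia, at 30.4, 25.6 and 42.8. None of 11 markers of intestinal, mucinous and clear cell differentiation was over it (median 105). CDX2 and CDX1, the intestinal homeobox factors, averaged 10.5 ± 2.15 and 24 ± 3.03. Of 9 mesothelial markers 2 were over the level: UPK1B, a uroplakin, at 2639.9, 3169 and 4009.7, and MSLN, mesothelin, at 449, 537 and 541. MSLN is also a well-known surface antigen of ovarian carcinoma and stands in that list too. Calretinin (CALB2) averaged 160.0 ± 53.5 and podoplanin (PDPN) 51.1 ± 14.2, both under the level.

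**Figure D2:**
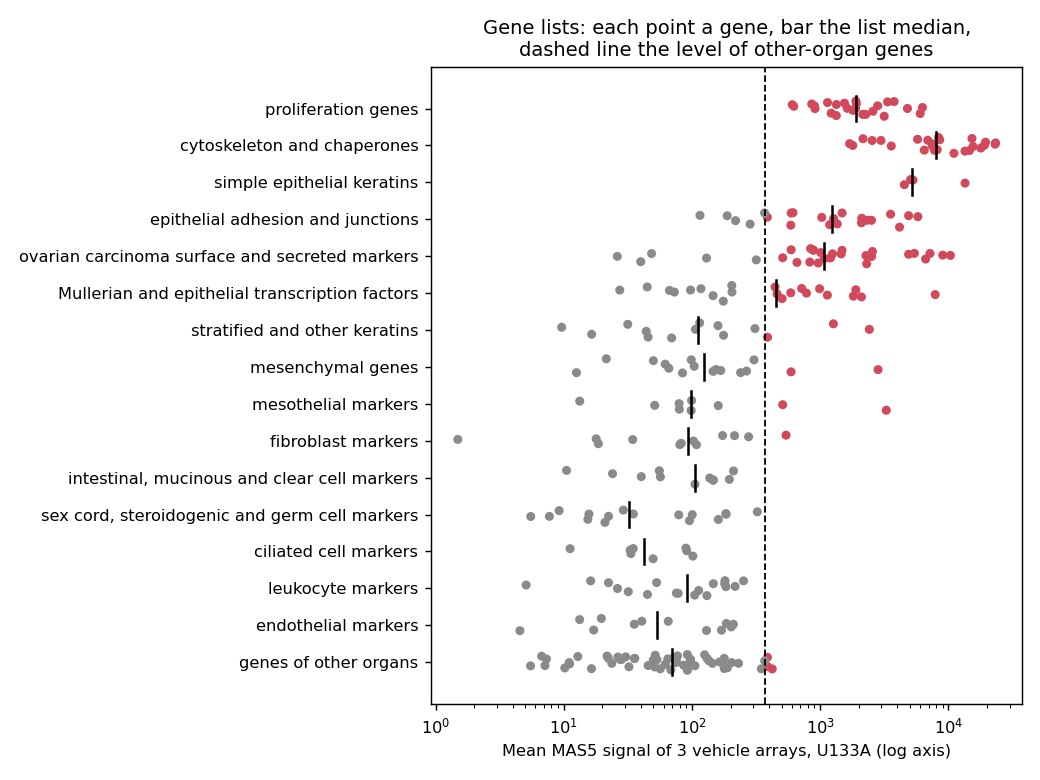
Mean MAS5 signal (log axis, 3 U133A vehicle arrays) of each measured gene in 16 lists, red over and grey under the level of other-organ genes (dashed), black bar the list median. Proliferation, cytoskeletal, simple keratin, junction and ovarian carcinoma lists lie mostly to the right of the line, and the lists of leukocytes, endothelium, fibroblasts and other ovarian cells lie mostly or wholly to the left.

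The cell cycle engine of these growing cultures was bright on U133A. All 25 proliferation genes were over the level on each of its 3 arrays, with a median of 1892. On U95 20 of 24 were over the level, while RRM2 (493), MCM5 (475), MCM4 (388) and BUB1 (334) were under it. RRM2, the regulated subunit of ribonucleotide reductase, gave 6305, 6179 and 6319, and TYMS, thymidylate synthase, gave 5934, 5640.2 and 6487. CDK1, the mitotic kinase, gave 5316, 4642 and 4406. MCM2, part of the replicative helicase, averaged 3766 ± 115, the mitotic cyclins CCNB1 and CCNB2 3353 ± 56.8 and 3153 ± 244, and MCM6 2804 ± 264. Even the dimmest of the list on U133A were over its level, namely AURKB at 605 ± 78.3, PLK1 at 621 ± 50.6, MCM5 at 858 ± 212 and FOXM1 at 902 ± 269. FOXM1 and MCM5 were the uneven ones, each with its high array in replicate 1. Summed over the list the arrays gave 59956, 55037 and 55177, highest in replicate 1.

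The regulators of G1 and S phase were mixed, with 14 of 24 over the level and a median of 439. CDKN2A, which encodes the kinase inhibitor p16 and the p53 regulator ARF, was the brightest, at 6840.4, 6753 and 7069.7. It had a second probe set at a mean of 2097 and another at 49.7, so its probe sets disagreed on whether it was over the level. CDK4, the kinase that p16 inhibits, gave 4331, 4384 and 4860.2. CCNE1 followed CDK4 in the list, and its partner kinase CDK2 averaged 1142 ± 66.9. CCNA2, cyclin A, averaged 1594 ± 331, the p27 degradation factor SKP2 1428 ± 52.5, p27 itself (CDKN1B) 1364 ± 35.8 and CCND1, cyclin D1, 816 ± 196. CDK6, the sister kinase of CDK4, was the dimmest, at 17.8, 17.3 and 35.2. E2F2 averaged 30.4 ± 14.7, CDKN2B (p15) 42.8 ± 34.1 and CDKN1A, the p53-induced inhibitor p21, 50.1, 40.7 and 50.9 on the 3 arrays. Of the kinase inhibitors, p15 and p21 were thus under the level of other-organ genes. The CDKN2A and p27 genes were over it on U133A by their brightest probe sets. On U95 CDKN2A was over the level, at 1476, but p27 was under it, at 350.5, as was SKP2, at 311. In all 8 of 23 genes of the list were over the level on U95, against 29.1% of all genes there.

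CCNE1 lies on chromosome 19, and its annotated neighbours were looked at one by one. Of the 20 nearest protein-coding genes, 10 on each side in RefSeq order and at whatever distance, 10 were measured. Of these 5 were over the level, a share not far from the 41.2% of all genes. POP4, a subunit of ribonuclease P, gave 4001, 4254 and 3958, and URI1, a prefoldin-like protein that is the next gene on the far side of CCNE1, gave 4017, 4108 and 3674. Both genes were also over the level on U95, at 2074 and 4215. PLEKHF1 gave 924, 954 and 1356. The other 2 over the level, named here after their values were seen, were PDCD5 at 1033 ± 68.7 and ANKRD27 at 790.2 ± 9.63. Those under it were zinc finger genes and TDRD12. DNA copy number was not measured here.

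Of 26 measured tumour suppressors, oncogenes and DNA repair genes, 12 were over the level, near the 41.2% of all genes, and the median was 355. On U95 8 of 23 were over the level, against 29.1% of all genes there. MCL1, an inhibitor of apoptosis, was the brightest at 4428, 4139 and 3700.2, and its relative BCL2L1 averaged 2065 ± 209. RAB25, a small GTPase of epithelial recycling endosomes, gave 2631, 3064 and 3266. PARP1, the poly(ADP-ribose) polymerase that ovarian cancer drugs inhibit, averaged 2338 ± 93.5. MSH6, a mismatch repair protein, averaged 1997 ± 63.6 and the checkpoint kinase ATR 1619 ± 110.3. AKT1 averaged 1149 ± 60.6 and HRAS 727 ± 31.6, and HRAS was under the level on U95, at 594. The lowest were MDM4, NF1, MYCN and BCL2, with means of 20.9, 32, 58.8 and 110.1.

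Because the wider study used a steroid-like hormone, the receptors for such ligands were described in the cells that had not received it. Of 24 nuclear receptors 6 were over the level, against 41.2% of all genes, and the median was 239. That count rests on where the level is set, since with the 90th percentile of the other-organ genes as the level 13 of the 24 receptors and 6546 of all 11963 genes passed. The brightest were the orphan receptors NR2F6 (1442 ± 78) and ESRRA (926 ± 36.2). RXRB and RXRA, the retinoid X receptors with which the vitamin D receptor pairs on DNA, averaged 787 ± 58.1 and 785 ± 58. The glucocorticoid receptor NR3C1 averaged 776 ± 117, but on U95 it gave 216, under the level there. VDR, the vitamin D receptor itself, gave 467, 348 and 428, over the level on 2 of 3 arrays. Its other probe sets averaged 67.2, 205 and 139, all under the level, and its brightest U95 probe set gave 276, under the U95 level. VDR was therefore close to the limit of what these arrays could separate from other-organ genes. The progesterone receptor PGR was the dimmest, at 5.39, 4.82 and 4.89, followed by PPARG (19.4 ± 4.10), RARA (50.1 ± 29.2) and ESR2, the second oestrogen receptor (104 ± 84.5).

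Of 14 genes of vitamin D metabolism and transport, 4 were over the level. The brightest was PDIA3, a disulphide isomerase that has also been described as a membrane binding protein for the hormone, at 4377, 4464 and 3706. DHCR7, the reductase that takes the vitamin D precursor into cholesterol, gave 603, 560.0 and 738. RXRA and VDR were the other two. CYP27B1, the enzyme that makes 1,25(OH)2D3, averaged 139 ± 11.2. CYP24A1, the enzyme that degrades the hormone and a classical target of VDR, gave 56.4, 84.1 and 247, under the level on every array but highest on replicate 3, with a mean of 129 ± 103 and a U95 signal of 15.3. GADD45A, the growth arrest gene by which the submitters checked the hormone response, gave 571, 403 and 432 (468 ± 89.8), over the level on all 3 arrays and highest on replicate 1. On U95 it gave 383, under the level of that type. S100G, CYP27A1, CUBN and CALB1 were the dimmest of the list, at means of 26.1, 28.8, 53.6 and 62.7.

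Among growth factor receptors 12 of 27 were over the level, close to the share of all genes, with a median of 284. The ephrin receptor EPHA2 was the brightest, at 1918, 1952 and 1727, and TGFBR2, the ligand-binding receptor of TGF-beta, gave 1859.9, 1830.4 and 1686. EGFR gave 1625, 1482 and 1285. All 3 had replicate 3 as the lowest array. FGFR1, a fibroblast growth factor receptor, was less even, at 1406, 806 and 1025, and FGFR2 averaged 951 ± 114. Of the EGFR relatives ERBB4 averaged 965 ± 56.8 and ERBB3 646 ± 52.6, and EPHB4 averaged 659.7 ± 61.1. The PDGF receptors PDGFRA and PDGFRB were the dimmest, at 17.9 ± 14.8 and 18.6 ± 5.34, followed by KIT (62.3 ± 22.3) and FLT1 (63 ± 16), receptors known from mesenchymal, germ and blood, or endothelial cells.

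The ligands were dimmer, with 8 of 27 over the level, 4 of them on all 3 arrays, and a median of 216. BMP7, a bone morphogenetic protein of kidney and Mullerian tissue, gave 1998, 1996 and 2280.4. INHBB, the subunit of activin B, gave 1476, 1399 and 1298, and VEGFA, the angiogenic factor, gave 818, 795 and 747. These 3 were also over the level of the U95 array, at 3607, 2420.1 and 1109.8. FGF18, a secreted ligand of FGF receptors, averaged 499 ± 102. NRG1, the ligand of ERBB3 and ERBB4, gave 343, 333 and 589.5 and so passed on the mean through replicate 3 alone. VEGFB passed through replicate 1 alone, at 428, 360.5 and 361. PDGFB averaged 416 ± 71.9 and TGFB2 375 ± 47.3, each over the level on 2 arrays. BMP4, FGF2, EREG and INHBA were the dimmest, at means of 15.5, 24.2, 25.6 and 26.

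In the chemokine and cytokine list 8 of 24 genes were over the level, against 41.2% of all genes, and 5 of the 8 were CXC chemokines that attract neutrophils (CXCL1, CXCL2, CXCL3, CXCL6 and CXCL8). CXCL5, another of that kind and named here after its values were seen, was under the level at 69.7 ± 18.1. CXCL1 gave 4952, 4021 and 4607 on U133A and 4499 on U95. CXCL8, interleukin 8, gave 2113, 2184 and 3132, and CXCL2 gave 1608, 1441 and 1785. CXCL3 averaged 632 ± 44.9. CCL20, which attracts lymphocytes and dendritic cells, gave 793, 740.1 and 1056, and IL6 gave 421, 407 and 568. CXCL8, CCL20 and IL6 had replicate 3 as their highest array, and the sum over the list was also highest there, at 13543, 12246 and 15369. CXCL10, an interferon-induced chemokine, averaged 418 ± 25.4 and CXCL6 416 ± 87.8. Of these 8, CXCL1, CXCL8, CXCL2 and CXCL3 were also over the level on U95. CCL20 (619), IL6 (177), CXCL10 (57.25) and CXCL6 (295) were under it there. The dimmest were IL32, CCL2, CSF3 and CXCL14, at means of 14.7, 15.7, 17.7 and 24.3. CCL2 attracts monocytes and CSF3 drives the formation of neutrophils.

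In all 8 of 21 antigen presentation genes were over the level, near the 41.2% of all genes, with a median of 273. On U95 4 of 18 were over the level, against 29.1% of all genes there. B2M, the light chain that all class I molecules share, gave 10589.5, 11817 and 10931. HLA-C gave 4551, 5287 and 4901, HLA-B gave 2590.4, 2749 and 2711 and HLA-G averaged 1452 ± 71.7. The class I heavy chains are near copies of one another, so their probe sets may share signal, and their separate levels are uncertain. TAPBP, which loads peptides onto class I, averaged 886 ± 92.8, and HLA-E and HLA-F averaged 871 ± 10.02 and 704 ± 33.2. The immunoproteasome subunit PSMB8 averaged 458 ± 107. Not all of the class I route was over the level: the peptide transporter chains TAP1 and TAP2 averaged 193 ± 41.6 and 356 ± 61.1 and the immunoproteasome subunit PSMB9 273 ± 41.7, all 3 named here after their values were seen. The class II chains HLA-DQA1, HLA-DRA, HLA-DPA1 and HLA-DPB1 were the dimmest, at means of 33.3, 57.1, 67.9 and 140.0.

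Interferon response genes were over the level in 11 of 30 cases, near the 41.2% of all genes, with a median of 272. On U95 5 of 29 were over the level, against 29.1% of all genes there. The membrane restriction factors IFITM3 and IFITM2 were the brightest, at 3994, 4609.5 and 4153 and at 2352, 2523 and 2898. IFITM1 averaged 918 ± 43.5, the guanylate-binding proteins GBP1 and GBP2 801 ± 34.9 and 509 ± 149, and the ubiquitin-like ISG15 788 ± 35.5. The IFITM genes are near copies as well, and signal may be shared between them. BST2, IFI44L, XAF1 and RSAD2, which interferon induces strongly in many cells, were the dimmest, at means of 16.1, 17.4, 28.3 and 39. The list therefore held some of the brighter and some of the dimmest genes of the array.

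Of the immediate early and stress genes 20 of 34 were over the level on U133A, with a median of 407. On U95 9 of 34 were over the level, against 29.1% of all genes there. ID1, an inhibitor of differentiation factors that BMP signals induce, was the brightest, at 6858, 7456 and 5807. The metallothioneins MT2A and MT1X, which bind zinc and other metals, gave 5142, 4348 and 4323 and 3222, 2648 and 2437. Both were highest on replicate 1. JUND, a member of the AP-1 family, averaged 2375 ± 115, ID2 2254 ± 406, IER2 2024 ± 239, the matricellular CCN1 1986 ± 113 and IER3 1597 ± 93.7. ID2 was far under the level on U95, at 16.6. FOS, FOSB and FOSL1, the partners of JUN proteins that serum induces for a short time, averaged 20.02 ± 5.70, 24.7 ± 2.56 and 25.2 ± 12.8, and the phosphatase DUSP4 16.2 ± 4.02.

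In sterol synthesis 16 of 17 genes were over the level on every U133A array, with a median of 933. On U95 11 of 16 were over the level. FDPS, farnesyl diphosphate synthase, gave 3474, 3916 and 4007, SQLE, squalene epoxidase, gave 1832, 1513 and 1864, and MSMO1, a sterol methyl oxidase, gave 1407, 1429 and 1530.0. Next came the isomerase EBP (1355 ± 89.4), mevalonate kinase MVK (1162 ± 105), SC5D (1092 ± 69.8), IDI1 (1077 ± 128) and TM7SF2 (1024 ± 83.3), all enzymes of the same route. The 1 gene under the level was MVD, the decarboxylase between MVK and IDI1 in the same chain of reactions, at 40.7, 20.9 and 33 on U133A and 25 on U95.

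The brightest genes of the U133A arrays were those of protein synthesis. Of the 30 highest, 24 encode ribosomal proteins, and of the 50 highest, whose means ran from 17258 to 32411, 35 do. RPS10 was first, with signals of 29434, 35342 and 32457. RPS16 was next at 24382, 34129.8 and 30589.9, followed by RPS6 at 25733, 31543 and 29075 and RPL37A at 24920.3, 31827 and 28426. These are structural proteins of the small and large ribosomal subunits, and RPS6 is also the target of the S6 kinases. In order, RPS23, RPL41, RPL7, RPS29, RPS21, RPL22, RPS3, RPL12, RPS18, RPL23A, RPS14, RPL30, RPL31, RPL39, RPLP1, RPL38, RPS12, RPS4X, RPS27 and RPL24 completed the 24, between 26497 and 20455. Across the whole array 52 ribosomal protein genes were measured, 51 were over the level, and their median was 19335. RPLP2, at 127, 153 and 121, was the exception, and RPL27A, at 408, 575 and 492, was the next dimmest, both named after their values were seen. On U95 38 of 46 ribosomal protein genes were over the level, with a median of 4028. Among those under it there were RPS16 (333), RPL37A (214), RPL41 (453), RPS3 (230), RPS18 (292), RPLP1 (512) and RPL39 (4.33).

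Ribosomal protein genes and some translation factors are known to share a start of transcription at a C within a run of pyrimidines, the 5′ terminal oligopyrimidine tract, through which the mTOR pathway controls their translation. The 30 bases around the RefSeq start of some of the brightest genes are shown to let that tract be seen, with 20 bases before the start and 10 from it on, and with the unbroken run of C and T from the start in capitals where the first base is C.
RPS10: cagcaccgcgcatgctccttCCTTTCCagc
RPS16: ccagggtggcccctagctttCCTTTTCCgg
RPS6: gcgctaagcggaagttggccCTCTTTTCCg
RPL37A: cctgcgcaccgcgtctcttcCTTTCTgggc
EEF1A1: cagtagtcgccgtgaacgttCTTTTTCgca
RPS23: ctccttcctgcggtgcttctCTCTTTCgct
TPT1: tggggagcggctgagtcggcCTTTTCCgcc
The next 3 are bright genes without such a run at the annotated start, and the last 5 are the lineage markers with a RefSeq promoter.
RPS29: ttttcccccgagcgcgcagctggcagcggt
TUBA1B: tccagcgccggccccgccctagtgcgttac
ENO1: tcggcgcgggcggcgcggacagtatctgtg
KRT8: gtgcctgatgcatgattttcattcagcaaa
PAX8: gtcggtgatgccgggtggatgggaacaaac
WT1: ttgggaagctgagggcagccaggcagctgg
CCNE1: tcccgctctgagccgggcgcaggagcagcc
MUC16: actgggcacatttgatacccgccagatctt
All are written 5′ to 3′ on the strand of the gene. On build GRCh38.p14 the windows lie at chr6:34426060-34426089 (minus strand) for RPS10, chr19:39435940-39435969 (minus strand) for RPS16, chr9:19380227-19380256 (minus strand) for RPS6, chr2:216498824-216498853 (plus strand) for RPL37A, chr6:73521023-73521052 (minus strand) for EEF1A1, chr5:82278345-82278374 (minus strand) for RPS23, chr13:45341174-45341203 (minus strand) for TPT1, chr14:49598701-49598730 (minus strand) for RPS29, chr12:49131386-49131415 (minus strand) for TUBA1B, chr1:8878677-8878706 (minus strand) for ENO1, chr12:52926460-52926489 (minus strand) for KRT8, chr2:113278912-113278941 (minus strand) for PAX8, chr11:32435530-32435559 (minus strand) for WT1, chr19:29811971-29812000 (plus strand) for CCNE1 and chr19:9065742-9065771 (minus strand) for MUC16.

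An annotated start with C first and only C or T in the first 5 bases was found in 26 of the 43 genes among the 50 brightest that have a RefSeq promoter, 60.5%. The share was 4.04% over all 27305 promoters, 4.94% over the genes of the array and 6.33% over the genes over the level. Within the 50 it was 24 of 30 ribosomal protein genes (80%) and 2 of 13 others, which are EEF1A1 and TPT1 above. Over every ribosomal protein gene measured it was 33 of 46, or 71.7%, a set that includes the 30. Translation factors had it in 6 of 15 (40%), glycolysis genes in 0 of 18, the lineage markers in 0 of 5 and the other-organ genes in 0 of 46. RPS29 shows that a bright ribosomal gene can lack the run at the start that RefSeq lists. The start is the annotated one and was not measured in these cells, and a match is a description of letters. In the 250 bases before the start, searched on both strands, TATAAA was present in 9.30% of the 43, 5.23% of the genes over the level, 7.93% of the genes of the array, 11.1% of all promoters and 47.8% of the other-organ genes. GGGCGG was present in 62.8%, 69.7%, 60.6%, 42.3% and 19.6% of the same sets, so the brightest genes had a share between those of the array and of the genes over the level. Matches of the motifs were counted separately, whether or not their letters overlapped.

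The other 6 of the 30 brightest genes were EEF1A1, GAPDH, TUBA1B, ACTB, TPT1 and FTH1P5. EEF1A1, which brings aminoacyl-tRNA to the ribosome, gave 23718, 29279 and 26547, and TPT1, a growth-related protein, gave 19700.2, 25369 and 23809. GAPDH of glycolysis gave 22911, 27747 and 24610.4. TUBA1B and ACTB, tubulin and actin, averaged 23304 ± 1723 and 23111 ± 2802. FTH1P5 is annotated as a ferritin heavy chain pseudogene, and its probe set, at 20227, 25517 and 21899.6, may hold signal of ferritin heavy chain genes of like sequence. Of the 50 brightest probe sets 22 have names ending in x_at, the maker's mark for probes that can bind other sequences, against 7.34% of all genes. HUWE1, a ubiquitin ligase named here after its values were seen, was in the 50 through such a probe set with a mean of 19325, while its other 3 averaged 3035, 8.56 and 18.98. Without the x_at probe sets, an alternative added after the data were seen, 33 of the 50 genes stayed in the list.

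Translation factors followed the ribosome, with 15 of 16 over the level and a median of 6508. PABPC1, the poly(A)-binding protein, averaged 14109 ± 1009.6, the initiation factors EIF4G2 and EIF1 12695 ± 1074 and 10372 ± 459.6, and EIF3E 8454 ± 248.8. The elongation factor EEF2 averaged 7438 ± 417, EIF3H 7263 ± 326 and EIF3F 6799 ± 423. EEF1A2, the form of EEF1A known from muscle and nerve, was the 1 under the level, at 137, 231 and 139.9, but gave 3287 on U95 through a probe set of a family type (f_at) and 371 through another.

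Glycolysis genes were over the level in 17 of 19 cases, with a median of 3846. After GAPDH came enolase ENO1, at 16780.0, 22436 and 19683, and the lactate dehydrogenase chains LDHA and LDHB, at 16458, 21833 and 19377 and 14892, 17058 and 16309.5. PGAM1 averaged 14675 ± 2186, pyruvate kinase PKM 14118 ± 1014, aldolase ALDOA 11882 ± 1329.8 and TPI1 10295 ± 875. The 2 under the level were ENO2, the neuronal enolase, at 194 ± 31.2, and the glucose carrier SLC2A3, at 21.2 ± 13.2. The other carrier, SLC2A1, averaged 1166 ± 244 and is named after its value was seen. On U95 12 of 18 genes of the list were over the level. Those under it there included PGAM1 (618), PKM (146) and SLC2A1 (288).

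All 26 genes of cytoskeleton and chaperones were over the level on every array, with a median of 8007. Beside TUBA1B and ACTB, the actin-severing CFL1 gave 17495, 22381 and 18491 and the actin-sequestering TMSB10 16549.6, 19678 and 17427. TUBA1C averaged 19074 ± 979.9 and TUBB 15254 ± 1599, tubulins whose probe sets may share signal. The HSP90 chaperones HSP90AB1 and HSP90AA1 averaged 15542 ± 859 and 14582 ± 189. CALR, a chaperone of the endoplasmic reticulum, was the dimmest, at 1694 ± 207, after MYL12A (1793 ± 169), TUBA1A (2155 ± 169) and ACTN4 (2538 ± 214).

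**Figure D3:**
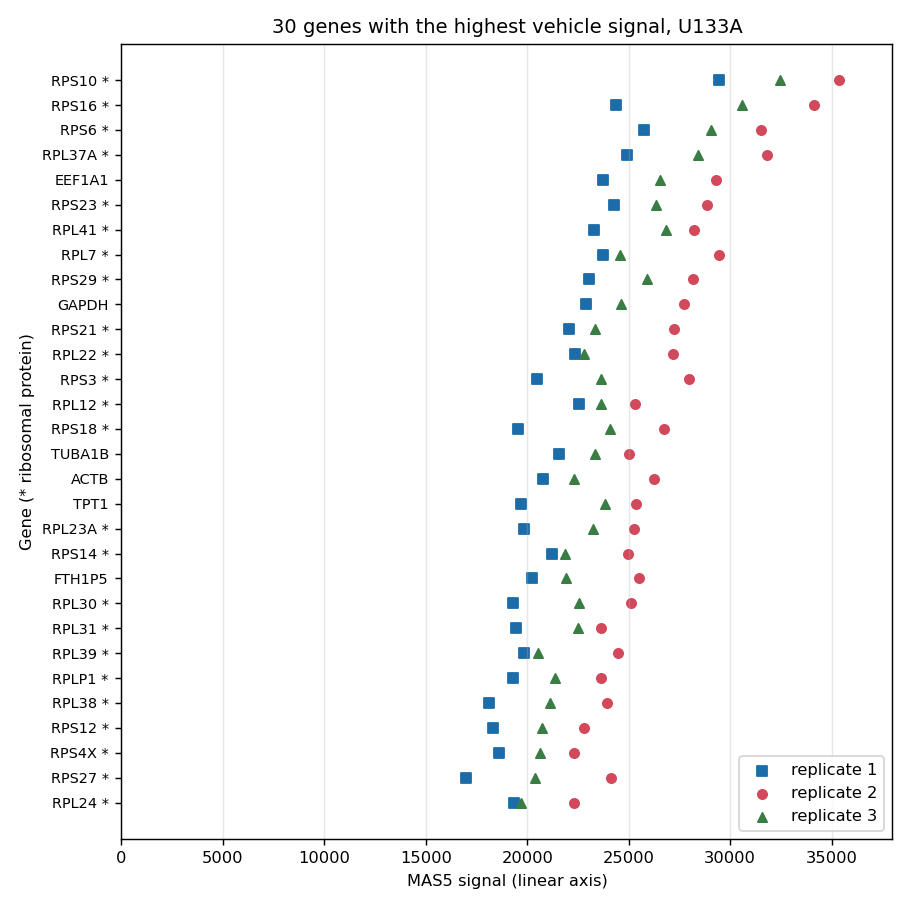
MAS5 signal (linear axis) of the 30 genes with the highest vehicle mean on U133A, one row a gene, with 1 symbol for each replicate and an asterisk for ribosomal protein genes. In each row replicate 2 lies farthest right, and replicate 1 lies farthest left.

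The 50 brightest genes ranked the 3 arrays much alike. Replicate 2 was the highest array in 49 of them and replicate 1 the lowest in 47, and the order 2, 3, 1 from high to low held in 47. Over all genes over the level replicate 2 was highest in 31.8% and that order held in 16.6%. The median difference of replicate 2 minus replicate 1 among the 50 was 0.30 on the log2 scale, against -0.01 over the genes over the level. The 9 probe sets of the hybridisation controls, RNAs added at a set amount, had medians of 597, 1059 and 833 on the arrays, which is the same order. Whether the controls and the bright genes share a source was not tested.

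Over all genes over the level the replicates were close. The SD of log2(signal + 16.46), where 16.46 is the 10th percentile of the vehicle values, had a median of 0.11, a 10th percentile of 0.04 and a 90th percentile of 0.24. It was under 0.25 for 91.4% of these genes, and in 4914 of the 4932, 99.6%, the 3 arrays lay within 2-fold of each other. For the 7031 genes not over the level the median SD was 0.25. With all genes cut into 10 bins by signal, it was greatest in bin 2 from the bottom (0.42) and least in the top bin (0.09). Across all 11963 genes, which are no independent replicates, Pearson's r of log2 signals was 0.98, 0.97 and 0.98 for replicates 1 and 2, 1 and 3, and 2 and 3. The number of genes over the level that differed by more than 2-fold between 2 arrays was 7, 10 and 7 in the same order. TUBB4B, a tubulin, was the steadiest gene over the level, at 11040.3, 11046 and 11019.6.

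The arrays were scaled alike. The 2% trimmed mean of all probe sets was 500.2 on each of the 4 arrays, and medians of the U133A arrays ran from 185 to 193. As a sign of RNA length, the 3′ probe set of ACTB exceeded its 5′ one by 0.07 to 0.24 (log2) on the U133A arrays. The same difference for GAPDH was from -0.17 to -0.05. The U95 array stood apart in this, with -0.36 for ACTB and -2.62 for GAPDH. Bacillus control probe sets, which match nothing in human RNA, had medians of 10.1, 17.2 and 24.5 on U133A replicates 1, 2 and 3. The leukocyte and endothelial sums given above rose in the same order. Whether these share a source was not tested.

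The 20 genes with the widest spread over the level were the only ones among the 4932 with an SD above 0.5, and they had no common array: the one farthest from the middle was replicate 1 in 6, replicate 2 in 5 and replicate 3 in 9. The widest was CDIPT, the phosphatidylinositol synthase, at 757, 714 and 2310.1, with a single probe set and replicate 3 alone high. FN1 followed, high on replicate 1. Of its 5 other probe sets, 4 were also highest on replicate 1, at 663, 133.3 and 228, then 652, 72.83 and 130, then 996, 229 and 323, and 198, 97.6 and 159. The last, at 4.29, 2.57 and 17.6, was far under the level and highest on replicate 3. For fibronectin the high replicate 1 was therefore not that of 1 probe set. DDX11, a DNA helicase, gave 666, 1500.3 and 2058, but another of its probe sets gave 1161, 1010 and 1380, with a different array lowest.

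CLU, clusterin, a secreted chaperone, gave 1829, 4189.7 and 3116, and a second probe set gave 1759, 3255 and 2646. BNIP3, a mitochondrial protein that low oxygen induces, gave 1590.1, 3238 and 1891, and a second one gave 1421, 2836 and 1554. In both genes the probe sets over the level kept the same extreme array. Of the 20 genes 6 had another probe set over the level, and in FN1, CLU and BNIP3 all such probe sets had the same extreme array. VTCN1, the immune checkpoint protein B7-H4 on ovarian carcinoma, gave 1059, 1219 and 615, with replicate 3 low. PARG, which removes poly(ADP-ribose), gave 435, 898 and 1084, and ST6GAL1, a sialyltransferase, gave 482, 441 and 1050.4. DCTD, a deaminase of nucleotide synthesis, gave 1746, 1608 and 889, and of its 2 other probe sets over the level 1 had the same extreme array. The remaining 11, ANXA2P3, RHOT2, RECK, RRBP1, NNT, PLEKHA1, PRSS3P2, NELL2, ABITRAM, TNKS2 and SCCPDH, had means from 376 to 616, in the dimmer range of genes over the level, and every one but ABITRAM had at least 1 array under it. With 3 arrays, a difference between cultures and error of measurement cannot be told apart for a single gene.

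**Figure D4:**
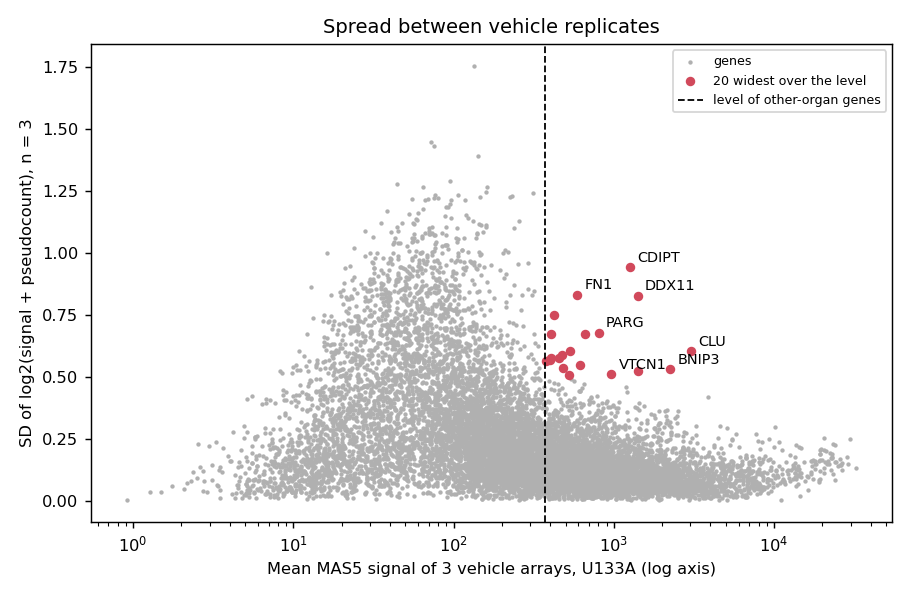
SD of log2(signal + 16.46) over the 3 U133A vehicle arrays against the mean signal (log axis), 1 point a gene, with the 20 widest genes over the level in red and 7 of them named. The spread is widest under the level (dashed) and narrows to the right, and CDIPT, FN1 and DDX11 stand highest among the genes over it.

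The U95 array gave a second reading of vehicle cells with another set of probes. It was not wholly separate, since PAX8 was read on each type by a probe set of the same name, 121_at. Across the 8115 genes on both types Spearman's rho was 0.74 and Pearson's r of log2 signals 0.74, given as a description across genes. The level was passed by 2109 genes on both types, 1556 on U133A alone, 275 on U95 alone and 4175 on neither. That is 57.5% of the U133A genes over the level and 88.5% of the U95 ones. Of the 50 brightest U133A genes 45 were on U95 and 38 were over its level, but 9 were among its own 50 brightest. The 10 brightest on U95 were PABPC1 (9147), NACA (8482), RPL37 (8358), RPL6 (8116), EEF1A1 (7826), RAB1A (7778), CRIP1 (7770), MSN (7652), HSP90AB1 (7618) and HSP90AA1 (7592). They include factors of translation, chaperones and MSN, moesin, which ties actin to the membrane. Ribosomal protein genes made up 7 of the 50 brightest on U95, and all of these 50 genes were over the level on U133A.

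The 10 largest differences in rank in each direction were looked at by gene. RPL39, a ribosomal protein, gave 19843, 24449 and 20527 on U133A and 4.33 on U95. ELAVL1, an RNA-binding protein, averaged 3641 ± 153 against 6.08, and TPD52L1 2542 ± 202 against 2.91. SEC61A1, the translocon channel, averaged 2929.5 ± 72.7 against 8.82, and CUL3, a ubiquitin ligase scaffold, 2039.8 ± 154 against 5.52. Next in the same direction were PTPRO, EIF2B1, ID2, RAP2B and GLRX3, with U133A means from 1564 to 3856 and U95 signals from 7.45 to 49.9. In the other direction SYN1, a protein of nerve terminals, averaged 21.2 ± 3.94 on U133A and gave 2727 on U95. PYGB, brain glycogen phosphorylase, averaged 47 ± 10.7 against 2276. ADAMTSL2, KRT33A, AANAT, SLC4A3 and DPT, and the histone genes H2BC15, H2BC14 and H2BC13, had U133A means from 6.09 to 34 and U95 signals from 1056 to 1797. The hair keratin KRT33A, the pineal enzyme AANAT and the synaptic protein SYN1 are not known from this lineage, and each was over the level on U95 alone. Of these 20 genes 12 have a single probe set on U133A, and the other 8 are given by the brightest of several. Which type reads the message was not tested.

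**Figure D5:**
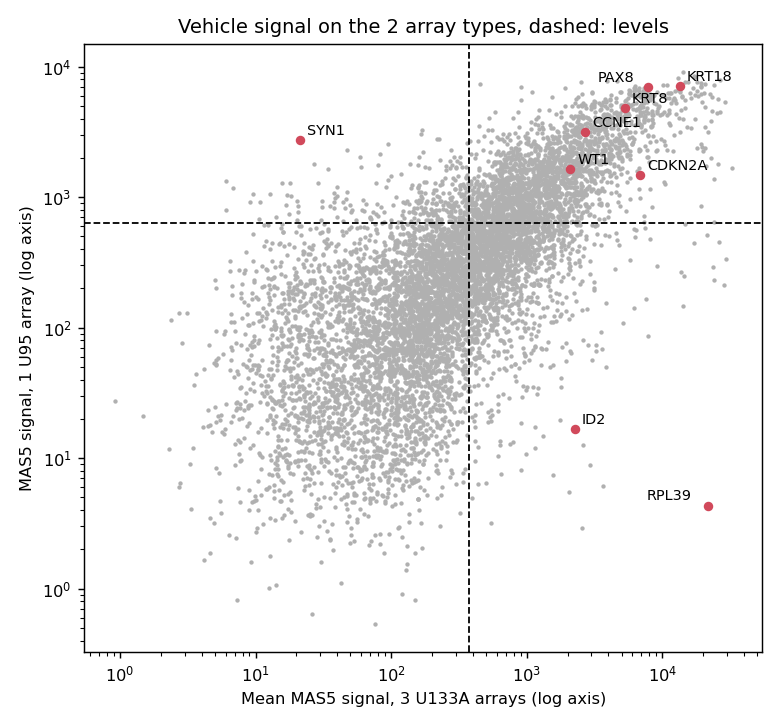
MAS5 signal of 8115 genes in vehicle cells, mean of 3 U133A arrays against 1 U95 array (both log axes), with the level of each type dashed and 9 genes in red and named. KRT18, PAX8, KRT8, CCNE1, WT1 and CDKN2A lie over both lines, and RPL39, ID2 and SYN1 lie over 1 line only.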

How the data were processed

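Total RNA was turned into biotin-labelled cRNA from an oligo(dT) primer and hybridised to 1-colour Affymetrix arrays, per the labels' protocols. The authors deposited 1 linear intensity for each probe set, made with MAS5 per the submitters' processing notes, whose version is not given in the sources used here. The 2% trimmed mean of the deposited intensity was 500.2 on every array, from which scaling by the authors was read, and no further scaling was applied. No detection call was used here.

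Genes were matched to probe sets through the platform annotation, and their symbols were updated from RefSeq (GRCh38.p14). Of 22283 U133A probe sets 19071 name 1 gene, 1043 several and 2169 none, and of 12626 U95 probe sets 10961, 546 and 1119. Probe sets with 1 gene were used, and the one with the highest mean stood for its gene (4310 U133A genes had several). Promoter sequences are from RefSeq, with the first listed start of each gene, and 43 of the 50 brightest genes matched.

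No treated array entered, and nothing was tested. Spread is the SD of log2(signal + 16.46). Genes were named by rule: the 30 brightest on U133A, the 10 brightest on U95, the 6 markers, up to 8 brightest and 4 dimmest of each list, the 20 widest in spread, the 10 widest rank gaps in each direction between array types, and GADD45A, CYP24A1 and VDR. The members, the 31 lists (671 genes, 591 measured) and the rule were chosen with earlier results of these data known. Listed genes without a probe set of their own are not described here. The calculations, tested on simulated data, used Python 3.11.15 with pandas 2.3.3, numpy 2.4.6 and scipy 1.17.1. The alternatives left out each array, averaged probe sets, used quantile normalization, moved the level, the pseudocount and the filter, and are given in the closing section.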

Additional observations from a re-analysis of the deposited data

How the results depend on the processing

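No paired analysis was possible because the vehicle arrays form 1 group and no test was made. In 15 alternatives all 6 markers stayed over the level wherever they were counted, and the genes over the level numbered 4574 (level at the highest other-organ gene) to 6546 (its 90th percentile), against 4932. The median SD of log2 signal, 0.1117, was 0.08704 to 0.09773 when 1 replicate was left out, 0.1061 with 4 times the pseudocount and 0.1703 with no filter on low signals. Of the 20 widest genes, 6 to 11 were shared when 1 replicate was left out, the fewest without replicate 3, 8 with probe sets averaged and 0 with no filter, so that list depends on each array and on the filter. Of the 50 brightest, 48 to 49 were shared without 1 replicate, 41 with probe sets averaged and 33 without x_at probe sets, the last added after the data were seen. Spearman's rho between array types was 0.628 over the 2109 genes over both levels. Of 240 list counts under alternatives 224 were within 1.5 times the count given, and 16 in 10 lists were not. With the 90th percentile as level, the members over it were 13 nuclear receptors, 18 interferon genes, 14 antigen presentation genes, 13 chemokines, 13 ligands and 5 mesenchymal genes. They also were 19 tumour suppressors, oncogenes and DNA repair genes, 2 fibroblast markers, 1 leukocyte marker and 1 marker of sex cord, steroid-making and germ cells. Averaging probe sets gave WT1 1369.9 and PAX8 1938, and left 0 fibroblast markers and 1 marker of sex cord, steroid-making and germ cells over the level. Genes near the level, such as VDR, are the ones these arrays limit.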
